A study of Mus musculus with 4 samples.

Results

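Short loops of the T-cell receptor β chain (TRB) are described here: in-frame rearrangements whose complementarity-determining region 3 (CDR3) has 8 to 11 residues. Of 238470 in-frame clonotypes in 4 libraries, 13157 were short loops, which is 5.52%. They are compared with the 170673 clonotypes of 13 to 15 residues, called mid loops below. Each clonotype joins 1 nucleotide sequence of the CDR3 to a V and a J segment. The 24855 clonotypes of 12 residues lie just outside the rule, and the 109 under 8 residues (the shortest has 4) were left out. CD8+ T cells were sorted as DAPI-negative, CD45+, CD3+ and CD8+ from digested livers bearing metastases of MC38, a colon carcinoma line of the mouse (the labels call the tumours melanomas). Cells came from wild-type mice and from Vsig4-/- mice, called Vsig4-deficient, 14 days after all of them had received MC38 cells. VSIG4 is a complement receptor of Kupffer cells, which are liver macrophages. There were 2 libraries per genotype, numbered 1 and 2 below. The labels give no strain, age or sex and do not say whether a genotype's libraries stem from different mice, so the p-values cover only the spread between these samples, which may be technical. TRB tables hold no Vsig4 transcript and no marker transcript, so neither the genotype nor the sort could be checked here.

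A TRB gene is put together in the thymus from a V, a D and a J segment. Nucleases trim the segment ends, hairpin opening can leave palindromic bases, and terminal deoxynucleotidyl transferase inserts bases that no template encodes. The CDR3 runs from the conserved cysteine near the end of V to the phenylalanine of J, and its middle residues usually touch the peptide held by the major histocompatibility complex. A loop becomes short when its segments end early in the germline, are trimmed deeply, or receive few inserted bases.

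In-frame counts totalled 875201 for wild-type 1, 857452 for wild-type 2, 958198 for Vsig4-deficient 1 and 1227914 for Vsig4-deficient 2. Short loops began with cysteine and ended with phenylalanine or tryptophan in 99.1% ± 0.0769 (SD, n = 4 libraries), against 99.7% ± 0.0480 of mid loops. That share was 89.2% of the 157 loops of 8 residues, 95% of the 318 of 9, 98.8% of the 2501 of 10 and 99.5% of the 10181 of 11 residues, so the shortest loops included more with unusual ends.

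The sequences that follow show how a short loop is built. Each runs 5′ to 3′ on the coding strand from the cysteine codon to the last J codon. V, D, J and palindromic bases are in lower case and inserted bases in capitals. The first pair are germline ends of the most used V and J segments of short loops, read from untrimmed clonotypes of the deposited tables. They were TRBV13-2 (chr6:41121396-41121832 in GRCm38.p6, a V segment of the TRB locus) and TRBJ2-7 (chr6:41543810-41543856, a J segment of the second J cluster).
TRBV13-2 germline end: tgtgccagcggtgatg
TRBJ2-7 germline end: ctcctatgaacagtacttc
The next 4 are the largest short clonotypes of wild-type 1, wild-type 2, Vsig4-deficient 1 and Vsig4-deficient 2, in that order.
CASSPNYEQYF, TRBV13-3 and TRBJ2-7: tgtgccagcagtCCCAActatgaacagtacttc
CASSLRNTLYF, TRBV12-1 and TRBJ2-4: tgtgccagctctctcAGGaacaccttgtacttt
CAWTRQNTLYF, TRBV31 and TRBJ2-4: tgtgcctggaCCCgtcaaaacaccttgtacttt
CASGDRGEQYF, TRBV13-2, TRBD1 and TRBJ2-7: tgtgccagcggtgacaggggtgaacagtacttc
The last of these is also the most abundant short clonotype without an inserted base. The other two of the 3 most abundant without one follow.
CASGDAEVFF, TRBV13-2 and TRBJ1-1: tgtgccagcggtgatgcagaagtcttcttt
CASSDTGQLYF, TRBV13-1 and TRBJ2-2: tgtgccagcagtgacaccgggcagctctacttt
The amino acid clonotype with most nucleotide versions was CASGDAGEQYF of TRBV13-2 and TRBJ2-7, with 15. Its 6 most abundant versions keep the whole germline V end and differ only in the bases that complete the alanine codon and the glycine codon after it.
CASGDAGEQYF version 1: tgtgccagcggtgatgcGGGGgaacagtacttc
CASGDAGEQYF version 2: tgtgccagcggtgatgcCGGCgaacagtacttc
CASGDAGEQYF version 3: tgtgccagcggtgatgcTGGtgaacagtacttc
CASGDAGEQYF version 4: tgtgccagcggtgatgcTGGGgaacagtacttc
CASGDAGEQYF version 5: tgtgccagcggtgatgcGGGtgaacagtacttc
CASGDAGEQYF version 6: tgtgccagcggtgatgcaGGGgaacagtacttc

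The share of short loops differed little between genotypes when each clonotype counted once. It was 5.52% (95% Wilson interval 5.32 to 5.73) in wild-type 1, 5.68% (5.51 to 5.85) in wild-type 2, 5.54% (5.33 to 5.75) in Vsig4-deficient 1 and 5.33% (5.17 to 5.50) in Vsig4-deficient 2. The genotypes overlapped, and the difference of Vsig4-deficient minus wild-type was -0.163 percentage points (two-sided exact permutation p = 0.667, where 6 splits allow no p under 0.333). Intervals cover counting error only. Of the 15 lengths fitted with edgeR's quasi-likelihood test, 0 differed between genotypes at a Benjamini-Hochberg adjusted p of 0.05, so 0% of the lengths were called. In edgeR 2 had an unadjusted p under 0.05, and DESeq2 made 0 calls. Lengths 8, 9, 10 and 11 had log2 ratios of -0.26 ± 0.19, 0.21 ± 0.14, 0.05 ± 0.06 and -0.08 ± 0.03 (SE) of Vsig4-deficient over wild-type. The smallest adjusted p among these 4, that of length 11, was 0.303 in edgeR. Without Vsig4-deficient 1, length 11 was called at a log2 ratio of -0.11 (edgeR adjusted p = 0.0177). That fit sets 1 Vsig4-deficient library against 2, takes its spread from the wild-type libraries and assumes that the lone library varies like them.

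**Figure D1:**
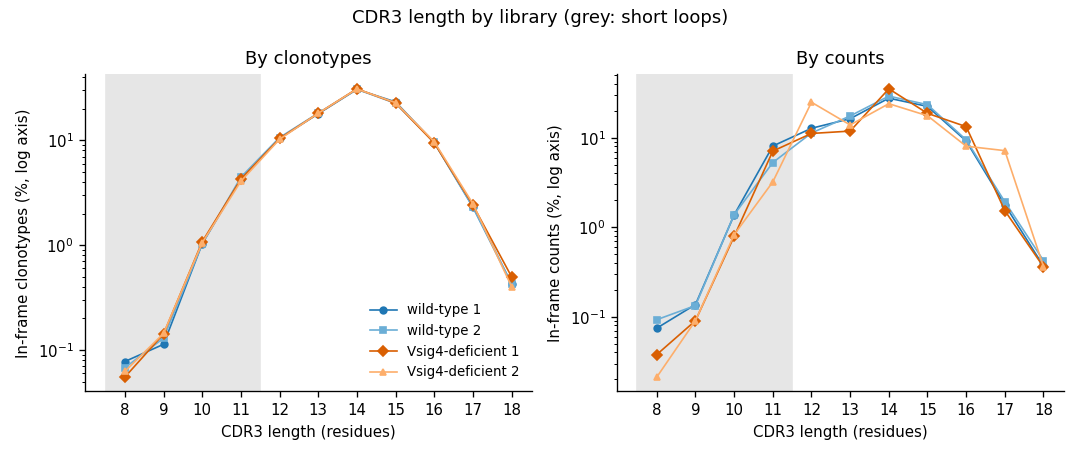
Share of in-frame clonotypes (left) and of in-frame counts (right) at each CDR3 length from 8 to 18 residues, on log axes, for each of the 4 libraries; the grey band marks short loops. By clonotypes the libraries lie nearly on 1 line, while by counts they spread, and both Vsig4-deficient libraries lie below both wild-type libraries at 8, 9 and 10 residues.

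By counts, short loops held 9.64%, 6.88%, 8.0% and 4.14% in wild-type 1, wild-type 2, Vsig4-deficient 1 and Vsig4-deficient 2. The genotypes overlapped, and the Vsig4-deficient mean was lower by a margin of -2.19 percentage points (exact permutation p = 0.667, two-sided). A few large clonotypes weighed on these shares. The largest held 32.3% of short-loop counts in wild-type 1, 5.41% in wild-type 2, 45.0% in Vsig4-deficient 1 and 2.48% in Vsig4-deficient 2. With the largest short clonotype of each library left out, an alternative added after the data were seen, the shares were 6.73%, 6.53%, 4.56% and 4.04%. Both Vsig4-deficient libraries then lay below both wild-type libraries, by -2.33 percentage points, at the smallest p the design allows (two-sided exact permutation p = 0.333). With the 10 largest clonotypes of any length left out the order was the same and the gap smaller, at 7.16%, 6.86%, 5.85% and 5.81%, a difference of -1.18 percentage points.

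The count share of the loops of 10 residues was 1.37% and 1.38% in the wild-type libraries, against 0.789% and 0.824% in those without Vsig4. At 9 residues it was 0.137% and 0.133% against 0.0903% and 0.0903%, and at 8 residues 0.0745% and 0.0926% against 0.0378% and 0.0212%. The genotypes did not overlap at any of these lengths, although the clonotype shares of 9 and 10 residues were higher in the Vsig4-deficient libraries. With 2 libraries per genotype no exact permutation p can fall under 0.333, so such a separation alone carries little weight. Overlap was not counted over all lengths. In the fit weighted by counts, 2 of 18 lengths were called, 9 and 10 residues, with log2 ratios of -0.58 ± 0.09 and -0.77 ± 0.08 (edgeR adjusted p = 0.0467 and 0.0230). At 11 residues, where the largest clonotypes lie, the count shares were 8.06%, 5.27%, 7.08% and 3.21%, and the genotypes overlapped.

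The largest short clonotype of each library had most of its counts there. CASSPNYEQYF of TRBV13-3 had 27298 counts in wild-type 1, 348 in wild-type 2, 2 in Vsig4-deficient 1 and 34 in Vsig4-deficient 2. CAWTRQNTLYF of TRBV31, the V segment that joins by inversion, had 34462 counts in Vsig4-deficient 1, 831 in Vsig4-deficient 2, 12 in wild-type 1 and 18 in wild-type 2. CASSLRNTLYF of TRBV12-1 had 3191 counts in wild-type 2 and 10, 3 and 5 in the other libraries. Each of these 3 was listed in all 4 libraries and was the largest short clonotype in 1 of them. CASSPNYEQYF also ranked 4th in wild-type 2, and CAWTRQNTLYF ranked 3rd in Vsig4-deficient 2. The nucleotide version of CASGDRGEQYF printed above had 1261 counts in Vsig4-deficient 2, 133 in Vsig4-deficient 1, 32 in wild-type 2 and 0 in wild-type 1. The second largest were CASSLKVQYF of TRBV29 in wild-type 1 (2192 counts), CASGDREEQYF of TRBV13-2 in wild-type 2 (744), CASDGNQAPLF of TRBV12-2 in Vsig4-deficient 1 (4004) and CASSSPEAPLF of TRBV29 in Vsig4-deficient 2 (1041). The others among the 5 largest of each library had 331 to 2642 counts there. The loops of 8 residues reached far lower counts. Their most abundant was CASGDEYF of TRBV13-2 and TRBJ2-7, with 125 counts in wild-type 1 and none elsewhere, followed by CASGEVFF (73 in wild-type 1 and 42 in Vsig4-deficient 2) and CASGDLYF (105 in wild-type 2, and 1, 6 and 1 in wild-type 1, Vsig4-deficient 1 and Vsig4-deficient 2).

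The length of a loop fixes how many bases it holds (32.2 in short and 42.2 in mid loops on average), so only the division of the loss between its sources is a result. Most of it came from J and from the stretch between V and J. Short loops kept 2.25 D bases ± 0.0419 against 6.36 ± 0.0248 in mid loops (SD, n = 4), and 14.6 ± 0.0384 J bases against 18.4 ± 0.0132. They kept 12.5 ± 0.0117 V bases against 13.7 ± 0.0159, and held 2.77 ± 0.0353 inserted bases against 3.23 ± 0.0139. In per-loop bases the differences were thus -4.11 for D, -3.81 for J, -1.15 for V and -0.464 for inserted bases. Where no D was assigned, in 64.6% of short and 20.6% of mid loops, all bases between V and J counted as inserted. The split between D and inserted bases therefore depends on D assignment. The whole stretch between V and J differed by -4.58 bases. The length rule requires short loops to hold fewer bases over these parts, so the signs are described and not tested.

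A D segment was not assigned in 64.4%, 65.8%, 64.6% and 63.7% of short loops, against 20.7%, 20.4%, 20.6% and 20.7% of mid loops. The difference was 44.0 percentage points ± 1.03 (SD, n = 4). Fewer bases between V and J leave less sequence to assign a D from, so this share is not independent of the length rule and was given no test, and unassigned D bases are counted as inserted. Among loops with a D hit, inserted bases numbered 1.77 ± 0.0364 in short and 2.66 ± 0.0109 in mid loops. TRBD1, the D segment upstream of both J clusters, made up 75.1% ± 1.61 of D hits in short and 59.8% ± 1.30 in mid loops, higher in 4 of 4 libraries (two-sided exact sign-flip permutation p = 0.125, the smallest that 4 libraries allow). Pooled over libraries, this share was 75.0% at 11 residues, 61.4% at 14 and 31.2% at 17. It is thus tied to loop length as well, and its p is to be read with that limit.

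J ends were trimmed by 5.57, 5.56, 5.64 and 5.70 bases in short loops of the 4 libraries, and by 2.65, 2.65, 2.64 and 2.67 bases in mid loops. V ends lost 3.56, 3.54, 3.51 and 3.49 bases against 2.45, 2.49, 2.46 and 2.46. The ranges of the classes did not overlap for either end. Trimming is part of the length that defines the classes, so the direction follows from the rule, and what is described here is its size at each end and in each segment. The J excess of 2.96 bases was larger than the V excess of 1.06 bases in each library. Within single segments the direction was the same: in 12 of 12 J segments, short loops were trimmed more in all 4 libraries. For TRBJ2-7 the loss was 5.50 ± 0.125 against 3.39 ± 0.0205 bases, and for TRBJ1-6, the J segment with the longest germline end, 8.77 ± 0.569 against 4.36 ± 0.0585. Of 20 V segments with at least 10 short and 10 mid clonotypes in every library, 19 were trimmed more in short loops in all 4 libraries, and TRBV15 in 3 of 4.

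An intact J end was kept by 4.62% ± 0.517 of short and 27.3% ± 0.297 of mid loops, and an intact V end by 14.3% ± 0.647 against 24.9% ± 0.254. Palindromic bases, which need an untrimmed end, numbered 0.148 ± 0.00724 per short and 0.565 ± 0.00485 per mid loop. Loops without any inserted base made up 18.5% ± 0.827 of short and 12.7% ± 0.207 of mid loops. In 4.36% ± 0.216 of short loops the V and J matches overlapped, so that the same bases could come from either segment, against 0.559% ± 0.0439 of mid loops. Each of these differed in the same direction in 4 of 4 libraries. They also depend on loop length, and were not tested.

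**Figure D2:**
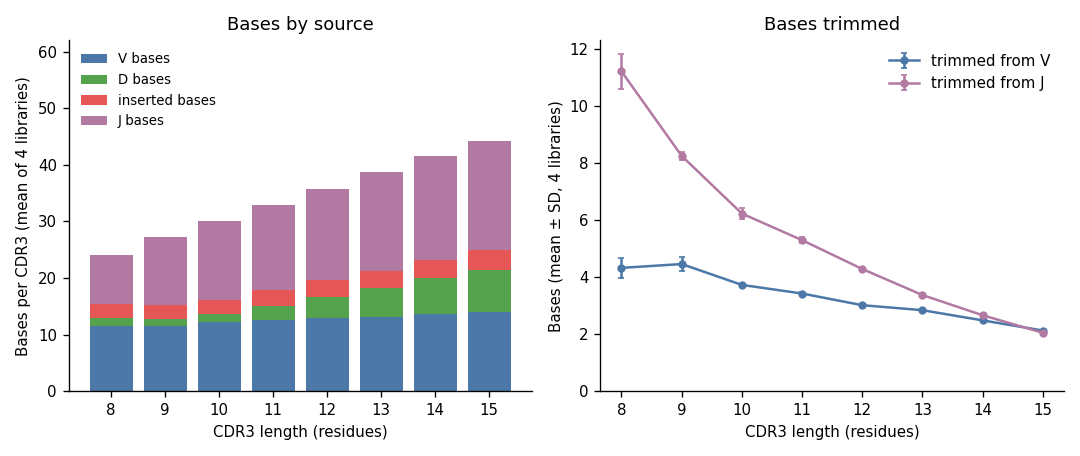
Left, bases per CDR3 taken from V, D, insertion and J at each length from 8 to 15 residues (stacked means over the 4 libraries); right, bases trimmed from V and J (points, means; bars, SD over 4 libraries). V and inserted bases change less with length than D and J bases, and D bases are fewest at 8 to 10 residues. Unassigned D bases count as inserted. Trimming of J climbs from 2.06 bases at 15 residues to 11.2 at 8, against 2.13 and 4.33 for V.

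Short and mid loops used many V and J segments in different proportions. Every one of 12 J segments passed the edgeR quasi-likelihood test with library as a block, so 100% were called, 2 as higher and 10 as lower in short loops. Germline V and J bases are part of the loop length, so segment use is not independent of the length rule either. The p-values of segment use below are to be read with that limit. TRBJ2-7 made up 42.1%, 42.1%, 41.2% and 39.8% of short loops against 18%, 17.8%, 17.3% and 16.7% of mid loops, a log2 ratio of 1.24 ± 0.01 (SE; edgeR adjusted p = 2.14e-45). TRBJ1-1 (chr6:41533864-41533911), the first J segment of its cluster, made up 19%, 18.1%, 18.1% and 18.4% against 9.02%, 9.49%, 9.76% and 9.08%, a log2 ratio of 0.98 ± 0.03 (adjusted p = 8.61e-28). These 2 segments alone formed the majority of short loops in every library.

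The lowest ratios were those of TRBJ1-6 at -1.98 ± 0.09, TRBJ2-2 at -1.57 ± 0.08, TRBJ2-3 at -1.57 ± 0.06 and TRBJ1-4 at -1.20 ± 0.07. TRBJ1-6 supplied 0.762%, 0.692%, 0.730% and 0.962% of short loops against 3.10%, 2.94%, 3.11% and 3.36% of mid loops. The others were TRBJ1-2 (-0.80), TRBJ1-5 (-0.79), TRBJ2-5 (-0.72), TRBJ1-3 (-0.67), TRBJ2-1 (-0.57) and TRBJ2-4 (-0.49), with SE from 0.03 to 0.08. Shares within a class must sum to the whole, so a rise of the 2 leading segments lowers the rest. With TMM normalization the median log2 ratio of the 12 segments moved from -0.76 to -0.09 and the calls to 3 higher and 4 lower, and with DESeq2 to 0.01 and 4 higher and 4 lower. TRBJ2-7, TRBJ1-1, TRBJ1-6, TRBJ2-2, TRBJ2-3 and TRBJ1-4 kept their direction and call under both. TRBJ2-4 turned higher and was called under both (0.18 and 0.27), and TRBJ2-1 turned higher (0.10, adjusted p = 0.0550 in edgeR with TMM, and 0.20, called in DESeq2). The whole first J cluster made up 30.5% ± 0.766 of short and 33.2% ± 0.851 of mid loops, lower in 4 of 4 libraries (sign-flip permutation p = 0.125).

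Of 23 V segments tested, 16 passed edgeR's threshold, which is 69.6%, with 8 higher and 8 lower in short loops. The highest ratios were those of TRBV30 at 1.57 ± 0.29, TRBV20 at 1.46 ± 0.15, TRBV29 at 0.82 ± 0.04, TRBV31 at 0.61 ± 0.06, TRBV13-3 at 0.52 ± 0.04 and TRBV13-1 at 0.41 ± 0.04 (edgeR adjusted p from 2.07e-27 to 1.40e-06). TRBV30 and TRBV20 are rare segments, at 0.340% ± 0.0315 and 1.04% ± 0.252 of short loops. TRBV29, listed as a pseudogene in the RefSeq annotation, made up 12.1%, 12.7%, 12.2% and 8.95% of short loops against 6.65%, 7.02%, 6.58% and 5.68% of mid loops, higher in each library. TRBV13-2 had a log2 ratio of 0.33 ± 0.04 and the largest share of short loops, 15.4% ± 1.22 against 12.3% ± 0.856.

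The lowest V ratios belonged to TRBV3 at -1.33 ± 0.06, TRBV2 at -1.27 ± 0.12, TRBV1 at -0.97 ± 0.06, TRBV5 at -0.84 ± 0.13, TRBV12-1 at -0.82 ± 0.05 and TRBV26 at -0.34 ± 0.08 (edgeR adjusted p from 1.81e-32 to 0.000120). TRBV3 made up 3.35%, 3.34%, 4.23% and 4.76% of short loops against 9.70%, 9.67%, 9.70% and 10.2% of mid loops. Read the other way, 2.36% ± 0.310 of TRBV3 clonotypes were short, against 7.54% ± 0.465 for TRBV13-3, 13.2% ± 1.31 for TRBV20 and 14.7% ± 2.25 for TRBV30.

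The 3 Vβ8 segments (TRBV13-1, TRBV13-2 and TRBV13-3) all rose in short loops and together made up 40.5% ± 2.87 of them, against 30.4% ± 2.46 of mid loops. The 2 Vβ5 segments (TRBV12-1 and TRBV12-2, the latter at -0.32 ± 0.05) both fell, to 12% ± 0.575 together against 17.7% ± 1.04. The Vβ8 sum was higher and the Vβ5 sum lower in 4 of 4 libraries (sign-flip permutation p = 0.125 each). TRBV13-2, TRBV29 and TRBV1, which semi-invariant natural killer T cells also use, made up 30.5% ± 0.366 of short and 25.8% ± 0.971 of mid loops, with TRBV1 lower and the others higher. By counts the order of the means was the opposite, at 29.3% ± 9.83 and 34.6% ± 0.342, and short loops were higher in 2 of 4 libraries. Those that mucosal-associated invariant T cells also use (the Vβ8 segments and TRBV19) made up 45.2% ± 2.11 and 34.6% ± 1.83, and by counts 57.3% ± 18.1 and 48.6% ± 3.71, higher in 3 of 4 libraries. The cells were sorted for CD8, which most natural killer T cells of the mouse lack. Conventional CD8+ T cells use all of these segments, and what other cells contributed was not tested.

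Weighted by counts, 5 V segments were called in place of 16, all lower (TRBV1, TRBV3, TRBV5, TRBV17 and TRBV26), and TRBV13-2 had a log2 ratio of -0.14 (edgeR adjusted p = 0.770). Single clonotypes set much of the count-weighted use: TRBV31 held 47.7% of short-loop counts in Vsig4-deficient 1, where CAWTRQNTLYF lies, and 2.46%, 5.29% and 6.36% in wild-type 1, wild-type 2 and Vsig4-deficient 2. TRBJ2-7 stayed higher by counts, at 1.39 ± 0.30, with 62.9%, 42.3%, 23.5% and 45.5% of short-loop counts.

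Among J segments, those with a short germline end had the higher ratios. TRBJ2-7 contributes 19 germline bases to the CDR3, TRBJ1-1 and TRBJ1-2 contribute 20, and the other J segments 21 to 25, with TRBJ1-6 the longest. Over the 12 J segments the log2 ratio was lower the more germline bases the segment has (Pearson's r = -0.79, Spearman's rho = -0.68). Segments with ends of 1 length differed too. TRBJ1-2 was lower in short loops while TRBJ1-1, with as many germline bases, was higher. Of the 3 segments with 21 bases, TRBJ2-3 had a lower ratio (-1.57) than TRBJ2-4 (-0.49) and TRBJ2-5 (-0.72). Over 22 V segments with a germline end the relation was looser (r = -0.59, rho = -0.58) and rested on TRBV31, TRBV20 and TRBV30, whose ends have 13, 14 and 14 bases. Among the 19 V segments with 15 or more bases r was -0.19. TRBV29 and TRBV3 both have 17 bases and had ratios of 0.82 and -1.33. These correlations run over segments that share the 4 libraries and are descriptions only.

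**Figure D3:**
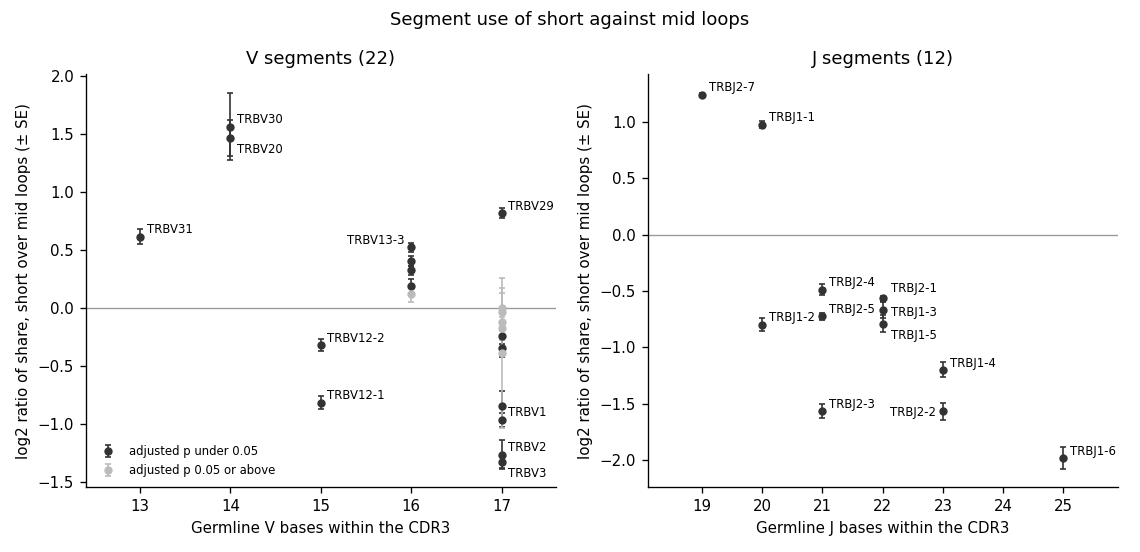
log2 ratio of segment share in short over mid loops (points; bars, SE of the edgeR fit) against the number of germline bases of the segment within the CDR3, for 22 V segments (left) and 12 J segments (right); grey points did not pass the threshold. TRBJ2-7 and TRBJ1-1 are the only J segments above 0 on this scale, and V segments with 17 bases spread from -1.33 to 0.82.

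TRBV13-2 joined to TRBJ2-7 made up 7.32%, 6.59%, 5.92% and 7.14% of short loops against 2.20%, 2.04%, 1.89% and 2.29% of mid loops. The classes did not overlap, and the difference was 4.64 percentage points ± 0.468 (SD, n = 4; sign-flip permutation p = 0.125). Whether segment use of short against mid loops differed between genotypes was tested as an interaction in edgeR, added after the data were seen. It called 0 of 23 V segments, 0 of 12 J segments and 0 of 20 centre residues, with 2, 0 and 2 at an unadjusted p under 0.05.

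Between V and J, a short loop had 1.10 centre residues on average, counting codons that lie wholly between the last V and the first J base, and a mid loop 2.53 (means over libraries were 1.09 to 1.11 and 2.53 to 2.54). The edgeR test over the 20 amino acids called 17, which is 85%, with 12 higher and 5 lower in short loops. Short loops kept 2.25 D bases against 6.36 in mid loops, so centre residues are not independent of the length rule either. The p-values of residues are to be read with that limit. Cysteine had the highest ratio, 1.79 ± 0.54, from 2, 4, 1 and 5 residues in the 4 libraries, so it rests on few loops. Phenylalanine followed at 0.94 ± 0.17 (0.633% ± 0.135 of centre residues in short and 0.333% ± 0.0102 in mid loops) and serine at 0.66 ± 0.07 (3.98% ± 0.398 and 2.50% ± 0.0512). Tryptophan was lowest at -0.49 ± 0.07 (3.50% ± 0.361 and 4.92% ± 0.175), then threonine at -0.30 ± 0.04 (7.18% ± 0.181 and 8.83% ± 0.251) and alanine at -0.22 ± 0.07 (3.19% ± 0.284 and 3.66% ± 0.0611). The edgeR adjusted p of these 6 ran from 2.49e-08 to 0.00510. Scaling moved the median ratio of the 20 residues from 0.31 to 0.12 with TMM and 0.06 with DESeq2 and the calls to 6 higher and 6 lower and to 3 higher and 6 lower, while these 6 kept their direction. Without Vsig4-deficient 2, 11 residues were called.

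In each library a larger share of short than of mid loops was listed in another library. In wild-type 1, 37.8% of short amino acid clonotypes (the same CDR3 residues, V and J) were listed in another library, in wild-type 2 32.3%, in Vsig4-deficient 1 41.2% and in Vsig4-deficient 2 36.4%. The mid loops of the same libraries reached 31.2%, 26.2%, 32.5% and 29.3%. Short loops were thus above mid loops in 4 of 4 libraries, by 7.12 percentage points ± 1.15 (SD; sign-flip permutation p = 0.125), although the ranges of the classes overlapped across libraries. By nucleotide sequence the shares were 25.4% ± 2.81 and 18.3% ± 2.18. After draws to equal depth the amino acid difference was 7.28 points.

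Of 9386 distinct short amino acid clonotypes, 170 (1.81%) were listed in all 4 libraries, against 1080 of 132836 (0.813%) mid ones. Of the 170, 126 had 11 residues, 42 had 10, and 1 each had 8 and 9. TRBV13-2 was used by 34.7% of them, TRBJ2-7 by 52.9%, and 31 used both. They held 44.5%, 18.7%, 58.8% and 22% of short-loop counts in the 4 libraries, and the largest clonotypes of wild-type 1 and Vsig4-deficient 1 are among them. Those alone held 32.3% and 45.0% of short-loop counts in wild-type 1 and Vsig4-deficient 1. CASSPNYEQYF, the largest of wild-type 1, had 2 counts in Vsig4-deficient 1. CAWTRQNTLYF, the largest of Vsig4-deficient 1, had 12 in wild-type 1. These 2 counts fell under the 1% limit of the alternative that left out leaking clonotypes. They were 0.000209% of in-frame counts against 3.12% for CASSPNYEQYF, and 0.00137% against 3.60% for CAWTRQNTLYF. Whether such low counts were carried over between libraries was not tested. Of the 170, the 5 whose lowest share was highest were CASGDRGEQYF, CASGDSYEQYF, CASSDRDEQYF, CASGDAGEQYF and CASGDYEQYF. All 5 used TRBJ2-7, 4 with TRBV13-2 and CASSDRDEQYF with TRBV13-3. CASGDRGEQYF, over its 11 nucleotide versions, had 149, 114, 171 and 2130 counts in wild-type 1, wild-type 2, Vsig4-deficient 1 and Vsig4-deficient 2. It was thus higher in both Vsig4-deficient libraries. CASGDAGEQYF had 709, 576, 91 and 167 counts, lower in both Vsig4-deficient libraries. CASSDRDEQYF, with 150, 124, 95 and 161 counts, overlapped by counts and was lower in both as a share of in-frame counts. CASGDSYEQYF, with 10 versions, had 304, 112, 121 and 177 counts and showed neither order, nor did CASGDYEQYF (81, 193, 95 and 249). These orders were not tested.

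Nucleotide versions per short amino acid clonotype averaged 1.10 ± 0.0149 within a library, against 1.07 ± 0.0107 for mid loops, higher in 4 of 4 libraries (sign-flip permutation p = 0.125). Most versions after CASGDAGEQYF belonged to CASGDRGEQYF (11), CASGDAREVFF of TRBV13-2 and TRBJ1-1 (11), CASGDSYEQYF (10) and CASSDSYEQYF of TRBV13-1 and TRBJ2-7 (9). Of the 6 printed versions of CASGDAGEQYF, version 1 was the only one listed in all 4 libraries, with 182, 125, 41 and 17 counts. Version 2 lay mainly in wild-type 1 (158, 0, 1 and 0), and version 5 had its highest count in Vsig4-deficient 2 (27, 38, 0 and 68). Versions 3 (65, 89, 0 and 0), 4 (29, 116, 0 and 1) and 6 (58, 67, 0 and 4) lay mainly in the wild-type libraries.

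Pairs of libraries shared 361 to 696 short amino acid clonotypes. Wild-type 1 and 2 shared 640, which is 26.7% of the first and 17.1% of the second, and Vsig4-deficient 1 and 2 shared 675, which is 28.2% and 20.1%. The overlap as a share of the union was 11.6% and 13.3% within the genotypes and 8.15% to 10.9% for the 4 pairs between them. Mid loops showed the same order, at 8.73% and 9.91% against 5.27% to 7.67%. The pairs share libraries, and no test was made of this order.

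**Figure D4:**
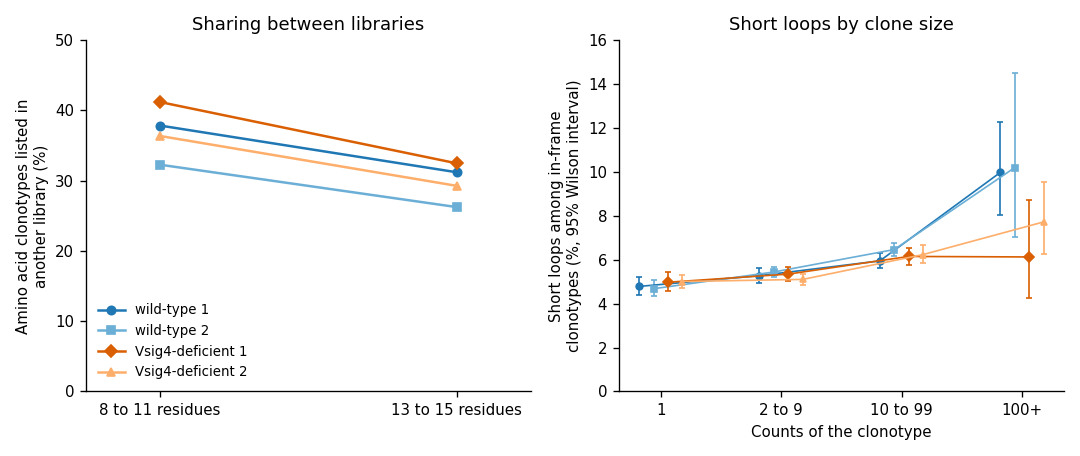
Left, percent of amino acid clonotypes of a library that are listed in another library, for short and mid loops, with 1 line per library; right, percent of short loops among in-frame clonotypes of 4 size classes (bars, 95% Wilson intervals). All 4 lines on the left fall toward mid loops, and on the right the share of short loops is lowest among clonotypes with 1 count in every library.

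In each library fewer short than mid loops had 1 count, at the smallest p that 4 libraries allow. The median size was 8, 7, 6 and 3 counts for short and 6, 6, 5 and 3 for mid loops in wild-type 1, wild-type 2, Vsig4-deficient 1 and Vsig4-deficient 2, higher in 3 of 4 libraries (sign-flip permutation p = 0.250). Clonotypes with 1 count made up 18.6%, 14.5%, 18.8% and 31.0% of short and 21.5%, 17.8%, 21.0% and 33.3% of mid loops, lower for short loops in each library (sign-flip permutation p = 0.125). Seen by size, short loops were 4.78%, 4.68%, 4.98% and 5.01% of clonotypes with 1 count, and 5.95%, 6.46%, 6.15% and 6.24% of those with 10 to 99 counts. Among clonotypes with 100 counts or more they were 9.97% and 10.2% in the wild-type libraries, against 6.13% and 7.72% in those without Vsig4. The last 4 values rest on 77, 26, 28 and 79 short clonotypes, and their 95% Wilson intervals overlap (8.05 to 12.3, 7.05 to 14.5, 4.27 to 8.71 and 6.24 to 9.52).

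Above 0.1% of in-frame counts there were 5, 1, 4 and 1 short clonotypes, against 18, 14, 45 and 42 mid ones. As a share of each class the difference was 0.0246 percentage points, higher in 2 of 4 libraries (sign-flip permutation p = 0.750). It turned negative without wild-type 1. The 10 largest held 42.6%, 10.4%, 59.4% and 13.9% of short-loop counts and 5.09%, 6.34%, 23% and 14.1% of mid-loop counts, higher for short loops in 3 of 4 libraries (sign-flip permutation p = 0.250). The short class has far fewer clonotypes, so its 10 largest form a larger part of it.

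Out-of-frame rearrangements cannot encode the receptor of their cell, and serve here as rearrangements read without their own protein. Those with a CDR3 of 23 to 34 bases, the bases around 8 to 11 codons, made up 6.66%, 6.51%, 6.51% and 6.46% of out-of-frame clonotypes. In-frame clonotypes in the same window made up 5.52%, 5.68%, 5.54% and 5.33%, below the out-of-frame share in every library (difference 1.02 percentage points ± 0.144; sign-flip permutation p = 0.125). The window held 318, 501, 325 and 318 out-of-frame clonotypes.

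Within this window, out-of-frame loops used TRBV13-2 in 8.18%, 10.6%, 8.62% and 11.3%, against 15.6%, 14.7%, 14.4% and 17.1% of short in-frame loops. TRBJ1-1 made up 12.8% ± 2.13 of out-of-frame and 18.4% ± 0.417 of in-frame loops, while TRBJ2-7 made up 39.3% ± 2.28 and 41.3% ± 1.07. The first 2 differences had the same sign in 4 of 4 libraries (sign-flip permutation p = 0.125) and that of TRBJ2-7 in 3 (p = 0.250). Out-of-frame loops of 38 to 46 bases, set around mid loops, used TRBV13-2 in 12.8% ± 1.06 against 12.3% ± 0.856 of mid loops, and TRBJ1-1 in 6.56% ± 0.232 against 9.34% ± 0.352. The excess of in-frame TRBV13-2 thus appeared in the short window and not in the mid window, and the difference between the windows was not tested. Trimming was deeper out of frame, at 3.88 ± 0.118 against 3.52 ± 0.0300 bases for V and 5.94 ± 0.186 against 5.62 ± 0.0621 for J (sign-flip permutation p = 0.125 each). The share with no D hit was 64.4% ± 2.68 against 64.6% ± 0.882 (sign-flip permutation p = 0.875).

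Within short loops, segment use and junctions were compared between genotypes. The edgeR test called 0 of 21 V segments (0%), while 4 had an unadjusted p under 0.05, and none passed in DESeq2 (0). The smallest p-values were those of TRBV5, at 0.915% and 1.03% of wild-type short loops against 0.538% and 0.508% without Vsig4 (log2 ratio -0.91 ± 0.29, edgeR adjusted p = 0.0619), TRBV4, at 4.12% and 4.66% against 3.23% and 3.02% (-0.51 ± 0.18, adjusted p = 0.0782), and TRBV3, at 3.35% and 3.34% against 4.23% and 4.76% (0.43 ± 0.18, adjusted p = 0.136). The genotypes did not overlap for these 3 segments, which were picked for their small p. Segments with larger p, such as TRBV2, TRBV26 and TRBV31, did not overlap either, while TRBV13-2 and TRBV29 did. Overlap was not counted over all 21 segments. With 2 libraries per genotype no exact permutation p can fall under 0.333, so this separation says little about the 3 segments. Without Vsig4-deficient 1, 4 segments were called: TRBV3 higher and TRBV4, TRBV19 and TRBV29 lower in the Vsig4-deficient library that remained. The spread in that fit comes from the wild-type libraries alone. Without Vsig4-deficient 2, 0 were called. Vβ8 and Vβ5 segments had ratios from 0.01 to 0.14. None of 12 J segments (0%) was called, and 0 had an unadjusted p under 0.05 in edgeR, with 0 calls in DESeq2. The smallest p-values were those of TRBJ1-5 (0.41 ± 0.21), TRBJ2-1 (0.12 ± 0.07) and TRBJ2-7 (-0.06 ± 0.03), each at an edgeR adjusted p of 0.440.

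Junctions of short loops were close between genotypes. Bases trimmed from V numbered 3.56 and 3.54 in wild-type libraries against 3.51 and 3.49 in those without Vsig4, and from J 5.57 and 5.56 against 5.64 and 5.70. The genotypes did not overlap for either, at differences of -0.0478 and 0.0984 bases, and the exact permutation p of 0.333 is the smallest possible. Such a separation alone carries little weight. Kept J bases, the stretch between V and J, intact J ends and the TRBD1 share of D hits separated too. Kept V and D bases, palindromic bases, intact V ends, loops without an inserted base and loops with overlapping V and J matches did not separate. The share with no D hit (65.1% ± 1.01 and 64.2% ± 0.603, n = 2 each) and inserted bases (2.78 ± 0.0333 and 2.75 ± 0.0407) overlapped between genotypes (exact permutation p = 0.667 each). Short loops with 1 count were more frequent in the Vsig4-deficient libraries, at 18.8% and 31.0% against 18.6% and 14.5%, and the median size was lower, at 6 and 3 against 8 and 7 counts (exact permutation p = 0.333 each). Mid loops had nearly the same order, with medians of 5 and 3 against 6 and 6 counts and 21.0% and 33.3% with 1 count against 21.5% and 17.8%.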

How the data were processed

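TRB clonotypes were listed for 4 libraries made from total RNA of sorted CD8+ T cells. The genome build mm10 comes from the submitters' processing notes; the clonotype assembler was not given in the sources used here. Clone counts as deposited were whole numbers without normalization, of reads or of molecules (not stated). The authors' clone fraction and quality score, as deposited, set no filter. Totals ran from 901567 to 1269480 counts per library. Intervals on shares cover counting error only.

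In-frame rows carry no stop or frame shift in the CDR3. Trimmed, palindromic and inserted bases were read from the reference points of the deposited tables. Where no D was assigned, all bases between V and J count as inserted. Germline ends are the commonest sequence of untrimmed clonotypes: 33 of 34 ends were shared by at least 88.8% of them, and that of TRBV4 by 29.8%. Positions come from the RefSeq annotation of GRCm38.p6, where all 38 segments matched.

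Genotypes were compared over 6 splits with an exact two-sided permutation test, and short with mid loops within libraries with two-sided exact sign-flip permutation tests. Segment, residue and length tables, with clonotypes counted once and features of at least 10, were tested with edgeR 4.0.16 (quasi-likelihood, offsets from totals, Benjamini-Hochberg, threshold 0.05) in R 4.3.3, with DESeq2 1.42.0 as an alternative. Adjusted p-values in the text are edgeR's unless DESeq2 is named. Other values used Python 3.11.15, numpy 2.4.6, pandas 2.3.3, SciPy 1.17.1 and matplotlib 3.10.9. The junction, error-joining, leak, permutation and sign-flip functions and the main edgeR fit were tested on simulated data, and the other functions were not.

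The length limits, lists and tests were chosen with earlier results of these data known. Named were all J segments, the 6 highest and 6 lowest called V segments, the 3 highest and 3 lowest called residues, the members of the Vβ8 and Vβ5 lists, for genotype the called features or else the 3 with the smallest p, and the largest, most shared, most convergent and shortest clonotypes. The alternatives were TMM, DESeq2, no filter, weighting by counts, clonotypes with 1 count left out, errors joined (1 mismatch at a count ratio of 20), equal depth, amino acid or nucleotide clonotypes, 8 to 10 or 8 to 12 residues, large or leaking clonotypes left out (under 1% of their share elsewhere), the blocks, and each library left out.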

Additional observations from a re-analysis of the deposited data

How the results depend on the processing

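Of the alternatives to the main results, 162 gave the same reading, 9 moved a count of calls by over 1.5 times and 4 turned a direction. Exact permutation and sign-flip tests cannot reach the threshold with 4 libraries. Results tested that way therefore counted as the same whenever the direction held. For trimming of short against mid loops the length rule sets that direction as well. The 162 is thus no measure of how robust those results are. By clonotypes, the genotype difference in the short share was 0.0438 percentage points for 8 to 10 residues, and by counts 3.81 for 8 to 12 residues, the opposite of the main direction in both. Weighted by counts, the genotype difference in bases trimmed from J of short loops was -0.751, and calls numbered 5 for V and 3 for residues of short against mid loops, 2 for lengths and 1 for J (TRBJ1-5) between genotypes. TMM called 7 J segments and DESeq2 9 residues. The cause of these changes was not tested. Under DESeq2 the log2 ratios of TRBJ1-3, TRBJ2-1, TRBJ2-4 and TRBJ2-5 turned to 0.10, 0.20, 0.27 and 0.040, and under TMM those of TRBJ2-1 and TRBJ2-4 to 0.10 and 0.18. Both methods rescale all segments of a class together. Weighted by counts, TRBV13-2 turned to -0.14 and TRBJ2-4 to 0.085 in short against mid loops. Between genotypes, weighting turned lengths 9 and 10 to -0.58 and -0.77, TRBV13-1 to -0.054, TRBV13-2 to -0.17, TRBV13-3 to -1.20, TRBV12-1 to -1.28 and TRBJ2-1 to -0.037, and leaving out clonotypes with 1 count turned TRBV12-1 to -0.057. Apart from both lengths, none of these genotype ratios was called. With each library left out in turn, calls ranged from 11 to 16 for residues, from 0 to 1 for lengths and from 0 to 4 for V segments between genotypes, where the lone library is assumed to vary like the other genotype's pair. The short minus mid share above 0.1% of counts ranged from -0.0132 to 0.0517 percentage points. Genotype ratios ranged from -0.065 to 0.18 for TRBV13-2, from -0.019 to 0.24 for TRBV13-3, from -0.030 to 0.043 for TRBV12-1 and from -0.048 to 0.22 for TRBV12-2. The replicate numbers could not be shown to pair libraries: deviations of the same number correlated at 0.20 over lengths, 0.64 over V and -0.20 over J segments. The replicate block left 0 calls in all 3 genotype tables, as did the crossed replicate block, added after the data were seen, for J segments. With 2 libraries per genotype no permutation test can pass 0.05, and segments such as TRBV30, with 9 to 13 short clonotypes per library, are measured coarsely.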
